A study of Mus musculus with 2 samples.

Results

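Mouse microRNA genes whose symbols begin with Mir297, Mir466, Mir467 or Mir669 form an unusually repetitive group of hairpins, most of them packed into 1 intron of Sfmbt2. By that rule on the GENCODE M21 symbols, 81 of the 2202 microRNA genes in the count tables were taken, 71 inside the interval of chromosome 2 from 10466663 to 10518279 (mm10) and 10 elsewhere in the genome. The rule uses symbols and positions and no measured value. Small RNA was sequenced from left cerebral cortex, taken at 36 days of age from males of B6CASTF1/J, the offspring of a cross between the C57BL/6J and CAST/EiJ strains. The animals were untreated as far as the labels say. By the labels, replicate 1 came from animal 3 and replicate 2 from animal 4, although both carry the same donor identifier. The 2 libraries made up 1 group. Levels can therefore be described and the libraries compared with each other, but no conditions can be compared.

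Sfmbt2 encodes a Polycomb-related protein that is expressed mainly from the paternal allele in extraembryonic tissue of the mouse, and its intronic microRNA cluster is best known from the placenta. The hairpins there are thought to have multiplied by tandem duplication in the rodent lineage, and their arms are rich in alternating U-G and C-A stretches. A microRNA gene is transcribed as a hairpin, from which Drosha and Dicer cut an RNA duplex, and 1 strand of that duplex guides Argonaute to messenger RNAs that pair with its seed, bases 2 to 8. Hairpins that have been copied without change yield the same mature microRNA, and a sequenced read then fits several places in the genome equally well.

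Mature sequences were matched by symbol to the RefSeq entries available here (GRCm38.p6, the mm10 build). Among these, 9 of the 81 members had an entry and 8 had a mature sequence. Of the 71 members inside the interval 0 were matched, so all 8 sequences belong to members outside it. Whether RefSeq itself holds the members inside was not checked. The sequences are shown because they make the repeat character of these members visible. Mir466q was also the only member outside the interval with any read. Capitals mark the seed.

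miR-466q, chr3:28419988-28420007, plus strand: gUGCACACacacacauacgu
miR-466i-3p, chr13:17747552-17747573, plus strand: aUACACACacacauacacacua
miR-467f, chr11:69635419-69635439, minus strand: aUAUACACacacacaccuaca
miR-467g, chr5:34732872-34732892, minus strand: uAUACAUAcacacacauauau
miR-466j, chr10:60960802-60960824, plus strand: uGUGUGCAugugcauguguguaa
miR-466k, chr3:85467396-85467418, plus strand: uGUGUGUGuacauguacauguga
miR-467h, chr9:115381898-115381919, plus strand: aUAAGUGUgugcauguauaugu
miR-669n, chr3:115979905-115979924, plus strand: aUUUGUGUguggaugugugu

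The first 4 of these hold runs of alternating C and A, and the last 4 runs of alternating U and G, although the members belong to different name families. All 8 seeds differed from one another. Only the seed of miR-467h was found in another mature microRNA of the RefSeq table, miR-668-5p. The mature sequence of miR-467h was held by 3 annotated hairpins, of which 1 was a member, whereas each of the others was held by its own hairpin alone. This does not describe the members inside the interval, whose mature sequences were not available. A seed shared with a mature microRNA of those members could therefore not be found.

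The members differed in composition from the other genes with Mir symbols. The 4 dinucleotides UG, GU, CA and AC made up a median of 51.2% of all dinucleotides in the 81 member hairpins (range 32.5% to 76.0%), beside 27.0% in the 1093 other genes with Mir symbols. The highest share, 76.0%, belonged to Mir466q. Median GC content was 36.5% in the members and 51.9% in the other Mir genes. In the 46 microRNA genes with other symbols inside the interval, the medians were 38.3% for these dinucleotides and 38.7% for GC. Low GC content was thus not particular to the members. No test was applied, since copies of 1 hairpin are not independent.

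Levels are given as own-strand counts and as CPM, own-strand counts scaled so that all microRNA genes of a library sum to 1000000. A gene's value covers both arms of its hairpin, and CPM is not divided by length because the reads, from RNA of fewer than 30 bases, are shorter than the hairpins. Own-strand counts at all microRNA genes came to 4273791 in replicate 1 and 4010274 in replicate 2. Multi-mapped reads, which are missing from the gene counts, made up 42.8% and 39.9% of all reads. By counting error alone, a count of 0 allows up to 0.702 CPM and 0.748 CPM of reads that map to 1 place. It sets no limit on a microRNA whose reads map to several places. Of the 9 neuronal microRNA genes listed to check the tissue label, 6 reached at least 10 CPM in each library, and the list summed to 85535 and 53459 CPM. The list of embryonic stem cell and trophoblast microRNAs, for which 10 of 11 genes were in the tables, had none detected and summed to 1.87 and 2.49 CPM. The oligodendrocyte list (2 of 2 detected) summed to 5092 and 3534 CPM, the endothelial gene to 11394 and 10799 CPM and the mural list (2 of 2) to 5178 and 7691 CPM. The microglia and leukocyte list (2 of 3) summed to 1391 and 1131 CPM. The red-cell list (1 of 2) summed to 56.9 and 771 CPM, the widest ratio between the libraries among these lists. The part of these cell types in the results below was not tested.

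The 81 members gave 6375 reads in replicate 1 and 7146 in replicate 2, or 1492 and 1782 CPM (mean 1637 ± 205, SD, n = 2). That was 0.149% and 0.178% of the own-strand counts. Nearly all of it came from the Sfmbt2 intron: 6372 and 7134 reads lay inside the interval, 99.95% and 99.8% of the members' counts. The 10 members outside gave 3 and 12 reads, all from Mir466q. Any read at all was found at 16 of the 71 genes inside and at 1 of the 10 outside.

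Detection was set at a minimum of 10 CPM in each library, and 7 members reached it, all inside the interval. They made up 8.64% of the members, beside 13.6% of all 2202 genes and 26.3% of the 1093 other Mir genes. These shares are not alike in what can be counted, since multi-mapped reads are left out. Of the members, 39.5% shared all their 22-base stretches with other microRNA loci, beside 1.56% of the other Mir genes. Among the rest, 14.3% of the members and 26.8% of the other Mir genes were detected. Mir669h stood just inside the minimum, at 10.1 CPM in replicate 1, and Mir669e just outside it, at 6.98 CPM in replicate 2. The run of 38 plus-strand genes from Mir379 to Mir410 on chromosome 12, another imprinted series of many neighbouring hairpins, had 32 detected and summed to 63347 and 58372 CPM. In that run 2 of 38 hairpins had a stretch of 22 bases in common with a hairpin elsewhere, while 79 of the 81 members did.

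Among the members, Mir467d had the highest assigned counts, which leave out multi-mapped reads. It lies at 10507630 to 10507714 and had 2905 reads in replicate 1 and 3752 in replicate 2, which is 680 and 936 CPM (mean 808 ± 181, SD, n = 2). By mean CPM it ranked 109 among all microRNA genes. Of the members' reads it held 45.6% in replicate 1 (exact 95% binomial interval 44.3 to 46.8) and 52.5% in replicate 2 (51.3 to 53.7). These intervals do not overlap, and they cover counting error only.

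Its closest relative by sequence was Mir467e, 7 edits away over a hairpin of 87 bases. Mir467e lies 2 positions upstream among the members (10505721 to 10505807), with Mir466p between them, and had 956 and 1145 reads, or 224 and 286 CPM (mean 255 ± 43.7, SD, n = 2). Mir467c, at 10473931 to 10474027 near the other end of the interval, had 174 and 119 reads, or 40.7 and 29.7 CPM (mean 35.2 ± 7.81, SD, n = 2). These 3 genes carried the assigned counts of the Mir467 family. It summed to 944 and 1251 CPM and held 63.3% and 70.2% of the members' assigned reads. The fourth Mir467 gene with a read was Mir467b, described in macrophages as a regulator of lipoprotein lipase. It had 1 read in replicate 1 and none in replicate 2. The other 13 Mir467 genes, 10 of them the copies of Mir467a, had none in either library.

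The Mir669 family summed to 546 and 527 CPM over 30 genes. Mir669c, a microRNA described as rising in the aging mouse liver, lies at 10509296 to 10509404 and was its main member, with 1613 and 1589 reads, or 377 and 396 CPM (mean 387 ± 13.3, SD, n = 2). Mir669o (10514300 to 10514395) had 480 and 340 reads, or 112 and 84.8 CPM. Mir669l (10468971 to 10469068) had 152 and 58 reads, or 35.6 and 14.5 CPM. Mir669h, the last gene of the interval (10518155 to 10518279), had 43 and 97 reads, or 10.1 and 24.2 CPM. Mir669e (10467495 to 10467613) had 43 and 28 reads, or 10.1 and 6.98 CPM. The libraries thus lay close together for Mir669c and more than 2-fold apart for Mir669l and Mir669h, in opposite directions. Of the rest of the family, Mir669f had 1 read in each library, Mir669d-2 and Mir669i had 1 in 1 library, and 22 genes had none. Among those 22 were all 12 copies of Mir669a, which has been described as a brake on the muscle regulator MyoD in cardiac progenitors. Of these 12 copies, 11 shared all their 22-base stretches with other microRNA loci, and for those the 0 sets no limit.

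Mir466 and Mir297 were close to absent from the counts. The 28 Mir466 genes gave 4 and 15 reads in all. Besides Mir466q these were 3 reads of Mir466n in replicate 2 and 1 read of Mir466l in replicate 1. Mir466l is known from macrophages, where it protects the message of interleukin-10, and Mir466h, known from nutrient-starved cultured cells for promoting apoptosis, had 0 reads in both libraries. The 6 Mir297 genes gave 2 reads, from Mir297a-2, in replicate 1 and 1 read, from Mir297c, in replicate 2. In CPM none of these genes exceeded 0.748 in either library, except Mir466q in replicate 2, at 2.99 CPM.

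**Figure D1:**
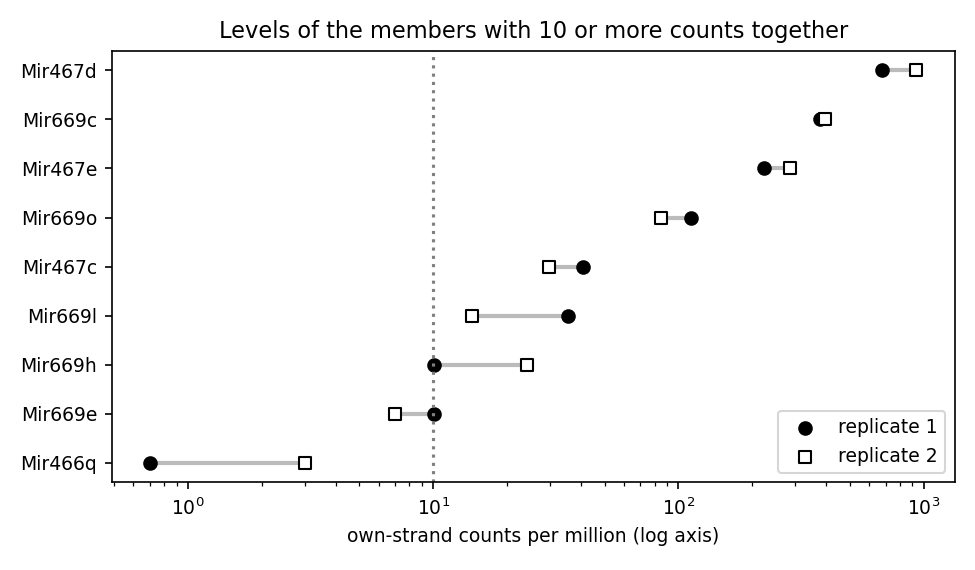
Own-strand CPM (horizontal log axis) of the 9 members tested between the libraries, with a filled point for replicate 1, an open square for replicate 2 and a dotted line at 10 CPM. Mir467d stands at 680 and 936 CPM, and Mir466q, the only gene from outside the Sfmbt2 interval, at 0.702 and 2.99 CPM.

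By the assigned counts, which leave out multi-mapped reads, the order of the 5 highest members was the same in both libraries. Mir467d stood above Mir669c, Mir669c above Mir467e, Mir467e above Mir669o, and Mir669o above Mir467c, and the ranges of neighbouring genes over the 2 libraries did not overlap. From Mir467c downward the order was not settled: the ranges of Mir467c and Mir669l overlapped, and so did those of Mir669l and Mir669h and of Mir669h and Mir669e. The plot of levels by gene shows this as points that interleave from Mir467c down to Mir669e and separate above it.

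All 71 members inside the interval lie on the plus strand within a single intron of Sfmbt2, transcribed in the same direction as the host gene (10370510 to 10595253). The intron spans 62472 bases (10461473 to 10523944) and is intron 10 or 11, depending on the transcript. The reads were not spread along it. Mir669e, Mir669l and Mir467c lie within the first 7.37 kb of the interval, and Mir467e, Mir467d, Mir669c, Mir669o and Mir669h lie in its last 12.6 kb. Between Mir467c and Mir467e lie 38 members, from Mir466b-1 to Mir669a-12 (10474219 to 10503877, 29.7 kb), and 1 read in the libraries together was assigned to them, at Mir467b. Opposite-strand counts were 0 at every member in both libraries, and the unstranded counts of each member equalled its own-strand counts.

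That middle stretch is a tandem array. The 10 copies of Mir467a follow each other at a median spacing of 2462 bases, and the 8 copies of Mir466b at 2470. The 12 copies of Mir669a, of which Mir669a-2 lies beyond the array, have a median spacing of 2457 bases. The 3 kinds alternate along much of the array. The 10 Mir467a hairpins are made up of 3 distinct sequences, 1 of which occurs 6 times, and 9 of the 12 Mir669a hairpins are identical. Not 1 read was assigned to any copy of Mir467a, Mir669a or Mir466b.

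To set this beside the counts, each hairpin was split into all its stretches of 22 bases, about the length of a mature microRNA, and a stretch was called the hairpin's own if no other annotated microRNA locus held it on either strand. By this measure 32 of the 81 members had no stretch of their own, all of them inside the interval, and 31 of those 32 lay among the 38 genes between Mir467c and Mir467e. None of the 32 had a read in either library, where multi-mapped reads are not counted. The other 49 members held all the reads, and 17 of them had at least 1. Among the 17 other Mir genes without a stretch of their own, 0 were detected and 1 had any read (2 reads in replicate 1). Over all 2202 genes, 297 had no stretch of their own, of which 5 had any read and 1 was detected. Mir669a-2 was the only member without a stretch of its own that lay outside the middle array.

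**Figure D2:**
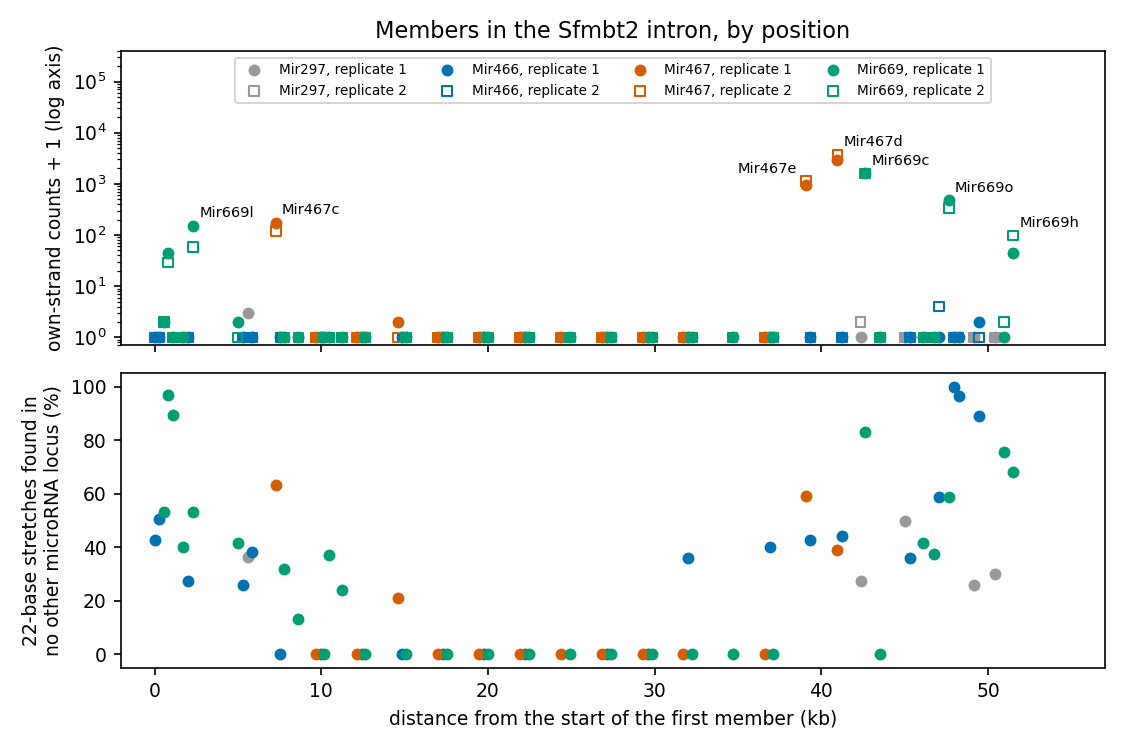
The 71 members of the Sfmbt2 intron by distance from the start of the first member (kb), with own-strand counts + 1 on a log axis above (filled points for replicate 1, open squares for replicate 2) and the percent of 22-base stretches found in no other microRNA locus below. Reads stand at both ends of the interval, while the 38 genes between Mir467c and Mir467e hold 1 read and 31 of them have no stretch of their own.

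Having sequence of its own did not by itself come with reads. Of the 49 members with such stretches, 32 had no read in either library. Mir466g had only stretches of its own (59 of 59) and 0 reads, Mir466h had 58 of 60 and 0 reads, and Mir669b had 68 of 76 and 0 reads. Conversely, Mir467d had the most reads of all members with 25 of 64 stretches its own. Among the 24 members with at least 50% of their stretches their own, 12 had a read and 6 were detected.

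By family, 3 of 19 Mir466 genes with stretches of their own had a read, beside 4 of 7 Mir467 genes, 8 of 17 Mir669 genes and 2 of 6 Mir297 genes. Of the other Mir genes with some but not all stretches their own, 81 of 133 had a read and 48 were detected, while 17 of 47 such members had a read and 7 were detected. Across the 81 members, the percent of own stretches and log2(CPM + 1) had Spearman's rho = 0.40 in replicate 1 and 0.42 in replicate 2, and over the 49 members with a stretch of their own 0.19 and 0.25. Multi-mapped reads are not counted, so a member without a stretch of its own can hardly gain a read. The rho over the 81 members is therefore partly set by the counting. These are descriptions across genes that share libraries, host transcript and sequence. The measure compares annotated microRNA hairpins only, and copies elsewhere in the genome were not analysed here.

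**Figure D3:**
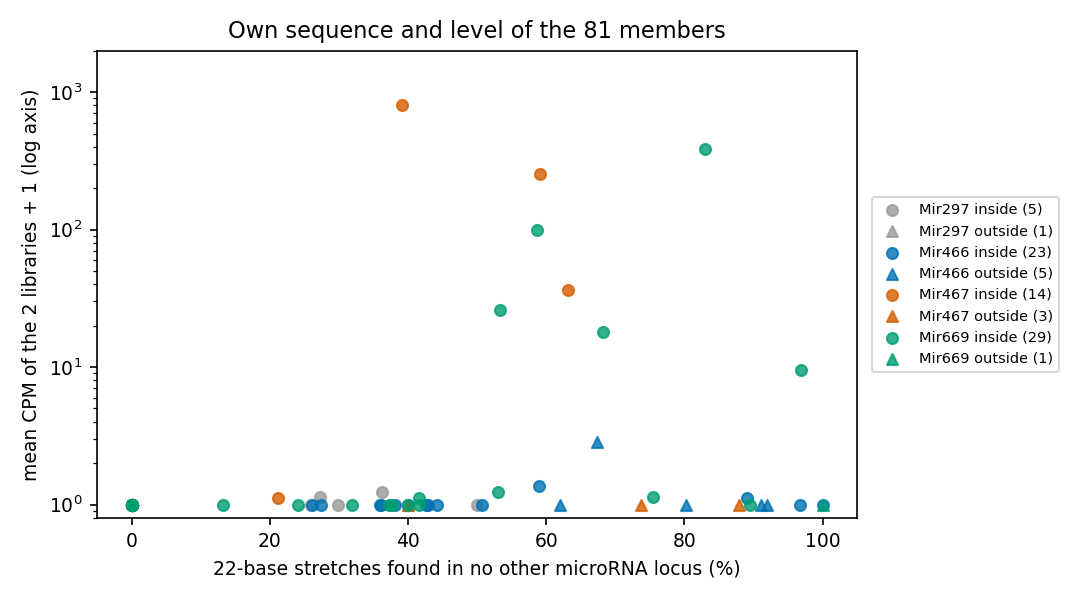
Mean CPM of the 2 libraries + 1 (vertical log axis) against the percent of 22-base stretches found in no other microRNA locus, for the 81 members, coloured by name family, with circles inside and triangles outside the Sfmbt2 interval. The 32 members at 0% all lie at the bottom, and Mir467d stands highest at 39.1%.

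The interval also holds 46 annotated microRNA genes with other symbols, interleaved with the members. None of them had a read in either library, and 22 of the 46 had no stretch of their own. The assigned reads of this stretch of chromosome 2 thus came entirely from genes with Mir467, Mir669, Mir466 and Mir297 symbols.

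The 10 members outside the interval are scattered over 7 chromosomes, and all had stretches of their own (median 77.0% of the hairpin, beside 25.9% inside). Mir466q lies in an intron of Tnik on chromosome 3 (28419943 to 28420018) on the strand of the host, which encodes a kinase found at synapses. It had 3 reads in replicate 1 and 12 in replicate 2, or 0.702 and 2.99 CPM. Mir466k, Mir669n, Mir467g, Mir467f and Mir466i lie in introns of Gm37240, Slc30a7, Grk4, Fxr2 and Cdk13, each on the strand opposite to the host, and had 0 reads in both libraries. Mir297-1, Mir467h, Mir466j and Mir466f-4 lie outside annotated genes other than microRNA genes and had 0 reads as well. For Mir467h, whose mature sequence is held by 3 hairpins, the 0 sets no limit on the level.

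For each gene, replicate 2 was set against replicate 1 by an exact binomial test, two-sided, with library sizes scaled by TMM and p-values adjusted by Benjamini-Hochberg over all genes tested. It compares 2 libraries, not conditions. Of 516 genes whose counts in both libraries came to at least 10 in sum, 57.9% were called at an adjusted p under 0.05, with 27.5% higher and 30.4% lower in replicate 2. Among the 9 members tested, 4 were higher and 3 lower in replicate 2, and 2 were not called. The median log2 ratio of replicate 2 over replicate 1 was 0.11 over the 9 members and -0.04 over the 511 genes of the test that had a count in each library. The median absolute log2 ratio was 0.49 in the members and 0.55 in all of those genes. The members' median was thus close to that of all genes, whose coefficient of variation between the libraries by edgeR's common dispersion was 43.7%.

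Mir467d and Mir467e, neighbours and close relatives, were both higher in replicate 2. The log2 ratio was 0.50 for Mir467d (exact 95% interval 0.43 to 0.57; exact binomial adjusted p = 1.39e-44) and 0.39 for Mir467e (0.27 to 0.52). Mir669h was also higher, at 1.31 (0.77 to 1.86), and so was Mir466q, at 2.13 on 3 and 12 reads with an interval from 0.24 to 4.60 (exact binomial adjusted p = 0.0312). Mir669l was lower in replicate 2, with a log2 ratio of -1.26 (-1.72 to -0.81), as were Mir467c at -0.42 (-0.76 to -0.07) and Mir669o at -0.37 (-0.57 to -0.16). Mir669c had a log2 ratio of 0.11 (0.01 to 0.21) with an exact binomial adjusted p of 0.0530, and Mir669e one of -0.49 (-1.23 to 0.23).

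Members of a single host intron therefore differed between the libraries in both directions. All 3 of the tested genes at the upstream end of the interval had lower values in replicate 2, of which Mir669l and Mir467c were called. At the downstream end 3 were called higher, Mir669o lower, and Mir669c was not called. The same 2 directions occurred within name families, as Mir467c was lower while Mir467d and Mir467e were higher. Whether the ends of the interval differ in this respect was not tested.

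**Figure D4:**
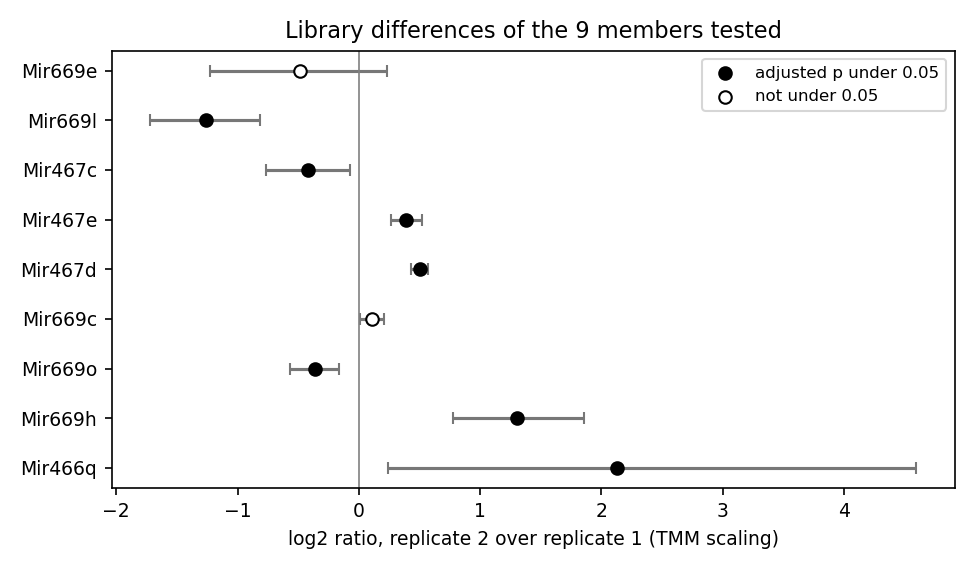
Log2 ratio of replicate 2 over replicate 1 (horizontal axis, TMM scaling) for the 9 members tested, in their order along the Sfmbt2 interval with Mir466q last, with exact 95% intervals and filled points for an adjusted p under 0.05. Mir669l, at -1.26, and Mir669h, at 1.31, lie on opposite sides of 0, and the interval of Mir466q reaches from 0.24 to 4.60.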

How the data were processed

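The authors deposited, per library, a table of raw counts of reads per microRNA gene, with 4 leading entries that name no gene. Per the text files deposited beside the tables, reads were mapped to mm10 with the GENCODE M21 annotation. No CAST/EiJ sequence was used here, and whether reads from CAST/EiJ alleles map to mm10 equally well was not tested. For the aligner and the counter, name and version: not given in the sources used here. Of the 3 count columns, read as unstranded, own-strand and opposite-strand, the own-strand one was used. Entries naming no gene (unmapped 16.7% and 20.9%, multi-mapped 42.8% and 39.9%, outside microRNA genes 4.56% and 4.39% of all reads) stayed out of totals and tests.

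Symbols, positions, host genes and hairpin sequences came from GENCODE M21, mature sequences from RefSeq (GRCm38.p6). Genes overlapping each other were treated as 1 locus when stretches of 22 bases were compared, and edits between hairpins were counted with edlib 1.3.9.post1. TMM factors (edgeR 4.0.16, R 4.3.3) were computed over genes with 10 or more counts. No count model was fitted to the difference, since 1 group leaves no contrast. The binomial test (SciPy 1.17.1, Python 3.11.15) was tested on simulated counts with counting error only. That setting lacks the further spread between these libraries, so it does not show how the test behaves on them. The p-values of the test, like all intervals here, cover counting error only. The labels number the animals separately but give both the same donor identifier, so the spread between libraries may be partly technical.

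Named were members with 10 CPM or more in both libraries or an adjusted p under 0.05, the highest of each family, the 5 highest on each side of the interval, and non-member genes in the interval with counts. Other members, such as Mir467b, Mir669b, Mir466g, Mir466h, Mir466l, Mir466n and Mir669a-2, were named after their values were seen. The members and lists were chosen with earlier results of these data known. As alternatives, library sizes were scaled by total counts or by size factors from DESeq2 1.42.0, and unstranded counts, other minimums, single libraries, other denominators and other gene sets were tried.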

Additional observations from a re-analysis of the deposited data

Results flagged for a closer look

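Part of the reads enters no gene count. Of all reads, those mapping to several places were 42.8% in replicate 1 and 39.9% in replicate 2. Those with a single place that lay in no microRNA gene were 4.56% and 4.39%, in the same order. How many of either kind came from the Mir297, Mir466, Mir467 and Mir669 hairpins was not tested.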

How the results depend on the processing

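Log2 ratios of the 9 members kept their direction under DESeq2 size factors, total counts, unstranded counts and TMM over all genes. The last of these was added after seeing the data. In each, 4 members were called higher and 3 lower in replicate 2, beside 25.7% to 26.6% and 30.5% to 32.4% of all genes tested. Other minimums leave each ratio as it is and change the genes tested. At a minimum of 1 count, 4 and 3 of 17 members were called, beside 18.03% higher and 18.9% lower of all 782 genes tested. At 100 counts it was 4 and 3 of 7 members, beside 39.2% and 42.7% of 309 genes. Mir669e and Mir466q were then not tested, and Mir669c passed the threshold (adjusted p = 0.0385, range over its alternatives 0.0385 to 0.244).

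At 100 CPM or more, 3 members were detected, all inside the interval, beside 8.72% of all genes. Scaled to all reads of the table in place of own-strand counts, the members summed to 578 CPM and those inside to 577 CPM. On that scale 5 members were detected, beside 11.2% of all genes. Without Mir467d the members summed to 829 CPM, those inside to 827 CPM, and 99.8% of the counts lay inside. With 1 library at a time, 7 to 8 members were detected, beside 14.2% to 14.5% of all genes, and the sum ranged from 1492 to 1782 CPM. With stretches of 18 or 26 bases, added after seeing the data, 49 and 50 members had a stretch of their own. No paired analysis was possible because the 2 libraries form 1 group. Of the 64 members without reads, 32 have no stretch of their own, and for these the counts set no upper limit, since multi-mapped reads are not counted. For the other 32, depth limits reads that map to 1 place to 0.702 and 0.748 CPM each. Of the 49 members with a stretch of their own, 47 also hold shared stretches. For reads from those shared stretches, as for Mir467h, a count of 0 sets no limit either.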
